A study of Homo sapiens with 6 samples.

Results

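The baseline transcriptome of vehicle-treated C4-2 cells was read from the 2 control arrays of a series of 6. C4-2, a human cell line of prostate cancer, descends from LNCaP cells that were passaged in a castrated mouse, and it grows without testicular androgens. The other arrays, of cells given a DNA-PK inhibitor or depleted of the kinase, were not used here. The cells of both samples were given DMSO, the vehicle, and were grown in medium that contained hormones. The protocol also speaks of a control siRNA pool, and the labels do not say whether these samples received it or how long they were in vehicle.

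Total RNA was amplified to cDNA, and the biotinylated cDNA was read on the Affymetrix Human Gene 2.0 ST array. Of 44629 probesets 15835 carried 1 gene symbol, and the brightest probeset stood for each gene, which left 14812 genes ranked by their mean log2 intensity on the control arrays. There was 1 group and therefore no test. Values are given as the intensity on replicate 1 and then on replicate 2, and the labels call these biological replicates without saying that they came from separate cultures.

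The prostate gland is lined by luminal epithelial cells, which secrete proteins such as prostate-specific antigen and rest on a layer of basal cells. Luminal cells depend on androgens, whose effect on transcription needs pioneer and lineage factors such as FOXA1 and HOXB13. They are also known for making large amounts of polyamines, citrate and lipids. Most prostate cancers keep this luminal character, and some of them acquire neuroendocrine features after androgen withdrawal.

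No deposited intensity lay below 16, and gene means ran up to 5471. Genes were placed in 5 bands by their mean, with limits at 1.5, 4, 16 and 64 times this floor. Those under 24 were called near the floor, those from 24 to 64 dim and those from 64 up to 16 times the floor moderate. Genes above that were called bright, and very bright from 64 times the floor. Of all genes 1950 (13.2%) were near the floor, 7437 were dim, 4047 were moderate, 1252 were bright and 126 (0.851%) were very bright. In all, 36.6% of genes reached 64 and 9.3% were bright or very bright, and counts of members are read against these shares. The median gene lay at 43.3.

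Hair keratin-associated proteins, structural proteins of the hair shaft that a prostate cell has no known use for, gave a measure of the signal of silent genes. Their 84 genes had a median of 24.8, and 95% of them were below 50.3. KRTAP5-7, at 216 and 213, was the brightest. The dim band thus held many genes that could not be told apart from silent ones, while 81 of the 84 hair genes stayed below 64. An intensity also depends on how well a probeset binds its target. The order of 2 genes on this scale is therefore an order of signal and not of transcript number, and only broad bands are compared between genes.

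**Figure D1:**
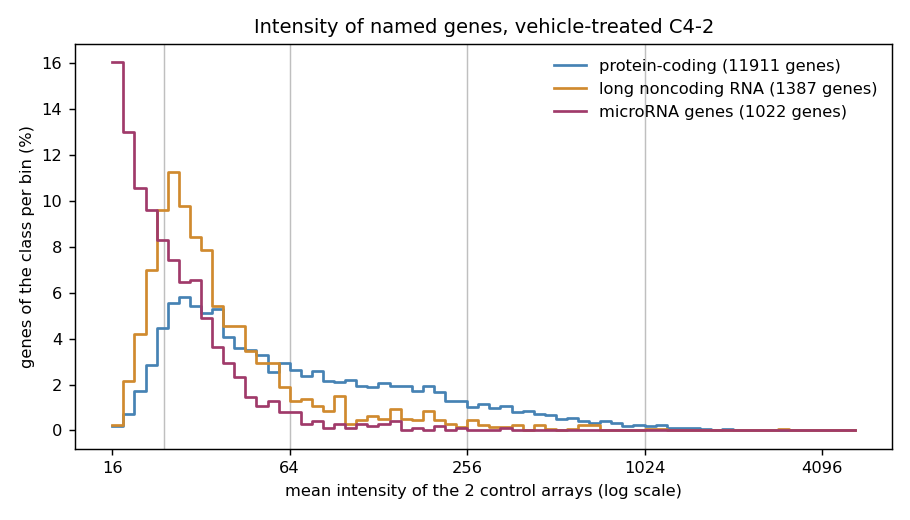
Share of genes of each class (vertical axis, % of the class per bin) by mean intensity on the 2 control arrays (horizontal axis, log scale), with grey lines at the 4 band limits. MicroRNA genes crowd toward the floor of 16 and long noncoding RNA genes peak just above 24, whereas protein-coding genes extend through the bright bands.

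The control arrays resembled each other closely. Their Pearson correlation across genes was 0.990 on the log2 scale and Spearman's rho was 0.977, both as descriptions across genes that share 2 libraries. The pooled SD between the arrays was 0.12 near the floor, 0.15 in the dim band, 0.13 in the moderate, 0.10 in the bright and 0.08 in the very bright band (log2, n = 2). Of all genes 88.8% fell in the same band on both arrays, and 2 genes differed by more than 2-fold. Among genes of 64 or more the largest difference was that of the antisense transcript ST7-AS2, at 79.0 and 179.6. The 9 next largest were PEX6, ELOF1, RNF185, BTBD2, DEPP1, GLRX, NANP, PAQR6 and TARDBP, with differences of 1.80-fold for PEX6 down to 1.61-fold for TARDBP. None of these 10 genes belongs to a list described here.

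Luminal prostate genes stood high on the arrays. Of the 32 genes of the luminal list 14 had a named probeset, and of these 12 reached 64 (36.6% of all genes) and 8 were bright or very bright (9.3% of all genes), with a list median of 322. FOLH1, the prostate-specific membrane antigen and a target of prostate imaging, was at 1067 and 1061, above 99.2% of genes. KLK3, which encodes prostate-specific antigen, was at 793 and 726. EPCAM, an adhesion protein of simple epithelia, was at 558 and 589. All 3 were brighter than 97% of genes on the mean of both arrays.

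The transcription factors of the luminal list were bright or moderate. FOXA1, a pioneer factor that opens chromatin for steroid receptors, was at 470.1 and 471. GRHL2, a factor of epithelial identity, was at 266 and 278. HOXB13, a homeobox factor of the prostate and hindgut, was at 163 and 175, and the ETS factor SPDEF was at 125 and 169. STEAP1, a membrane protein of the prostate cell surface, was at 403 and 437.

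Simple keratins, the intermediate filaments of luminal cells, gave uneven signals. KRT18 was at 359.9 and 405 and its partner KRT8, its neighbour on chromosome 12, at 81.8 and 90.0. KRT19 was dim at 40.8 and 52.9, and so was the surface protein CD24 at 29.1 and 31.0, and these were the only measured luminal genes below 64. KRT18 has many processed copies in the genome, so its probes may also read related sequence. Of the 29 keratin genes measured 3 reached 64, the remaining one being KRT10 at 112 and 115.7, a keratin of the upper epidermis. All other keratins, those of stratified epithelia included, lay between 17.0 for KRT6C and 46.6 for KRT16, with KRT73 next lowest at 19.5.

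Basal cell genes were near silent signal. Of 10 measured basal genes 1 reached 64, namely DST, a cytoskeletal linker with forms in many tissues, at 107 and 102. KRT5 was at 25.7 and 26.6, KRT14 at 33.3 and 28.5 and KRT15 at 29.4 and 20.2, which are the keratins that define basal cells. NGFR, the low-affinity nerve growth factor receptor of basal cells, was at 27.3 and 29.9. The median of the list was 30.4, within the range of the hair genes. The remaining basal genes, DKK3, SFN, NOTCH4, GPX2 and S100A2, ran in this order from a mean of 26.8 to 60.2.

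Neuroendocrine genes divided into a few that were measured well above the floor and a majority that were not. SOX2, known from stem cells and neural progenitors, was at 697 and 633, above 97.9% of genes. DLL3, a Notch ligand of neuroendocrine tumours, was at 190.5 and 190.3, and ONECUT2, a factor linked to androgen-independent prostate cancer, was at 124 and 119. By contrast CHGA, which encodes chromogranin A of secretory granules, was at 27.1 and 23.2, and the synaptic vesicle protein SYP at 30.5 and 31.3. INSM1, a factor of neuroendocrine differentiation, was at 34.9 and 36.6, and NCAM1 was at 49.4 and 38.3. RET and SCG3 were lowest, at 20.5 and 19.4 and at 21.2 and 18.7. In all 3 of 16 measured genes reached 64, and none of the 4 measured genes set as defining markers did.

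Markers of the other cell types of prostate tissue were mostly dim in this cell line. Of 10 endothelial genes 1 reached 64, ENG at 109 and 114, and of 9 leukocyte genes 1 did, the lysosomal protein CD68 at 153 and 139. CD14 was at 28.3 and 28.3, VWF at 28.3 and 28.2, KDR at 32.0 and 30.7, LUM at 30.2 and 36.9 and DCN at 18.8 and 19.2. The stromal list held 1 bright gene, FN1, the matrix protein fibronectin, at 854 and 785. Epithelial cells can make fibronectin too, and the intermediate filament VIM was at 54.2 and 66.5. The remaining stromal genes, DES, FBLN1 and THY1, ran in this order from a mean of 45.8 to 88.4. The remaining endothelial genes, FLT1, EMCN, TIE1, ESAM, PLVAP and CLDN5, ran in this order from a mean of 27.2 to 40.8. The remaining leukocyte genes, LYZ, CD4, TYROBP, CSF1R, NKG7, GNLY and CD8A, ran in this order from a mean of 25.7 to 35.5. The samples were a cultured line and not tissue, so these values do not count other cell types of the gland. Whether a signal came from few of the cultured cells or from little RNA per cell cannot be told in a bulk sample.

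The same held for organs far from the prostate. Of 13 liver genes TTR, a carrier of thyroid hormone and retinol, was the only one of 64 or more, at 181 and 184, while ALB was at 63.0 and 61.2 and FGB at 20.7 and 22.1. The remaining liver genes, FGG, TAT, AHSG, APOH, TF, FGA, APOA2, APOB, APOA1 and APOC3, ran in this order from a mean of 23.9 to 51.6. None of 8 striated muscle genes reached 64. They were MYOG, TNNC2, TTN, MYOD1, NEB, RYR1, DES and MB, with means from 28.4 to 62.6 in this order. The neuronal and glial list had MAP2, a microtubule-associated protein, at 82.1 and 77.5 and 6 genes below 64. The remaining neural genes, DCX, SYT1, CAMK2A, GAP43, MBP and GFAP, ran in this order from a mean of 26.5 to 59.3. The defining markers summed to between 3463 and 3523 per array for the luminal cells (8 genes), 105 to 115.8 for basal (4 genes) and 129 to 142 for neuroendocrine cells (4 genes). Per array they summed to 94.2 to 103 for stromal (3 genes), 58.8 to 60.3 for endothelial (2 genes) and 28.3 for leukocyte markers (1 gene). The label of a prostate line was thus met by its luminal markers, with CDH1, TMPRSS2 and SLC45A3 not analysed here.

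**Figure D2:**
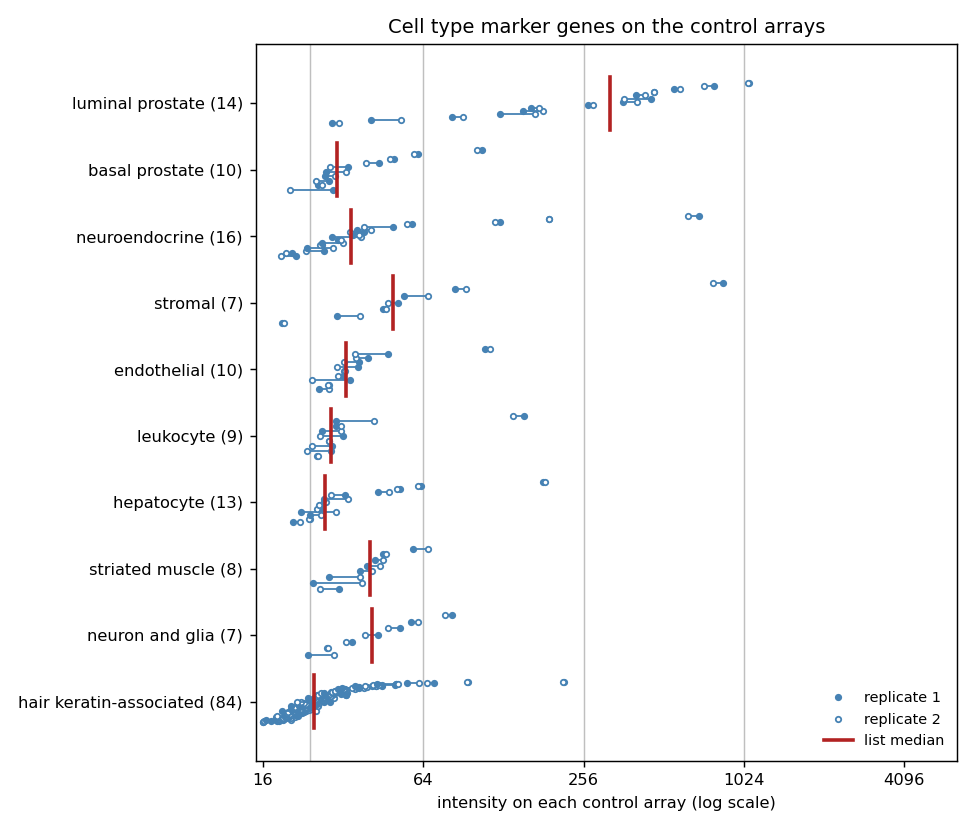
Intensity of each marker gene on control replicate 1 (filled) and replicate 2 (open), on a log scale, by cell type list, with the number of measured genes in brackets and the list median as a red bar. Luminal genes centre on 322, while the medians of the other lists lie between 24.8 and 49.3, with SOX2 and FN1 as the rightmost points of the neuroendocrine and stromal lists.

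The list of adhesion genes and mesenchymal regulators held both epithelial and mesenchymal genes among its brighter members. FN1, given above and counted here too, was the brightest. The tight junction scaffold TJP1 was at 657 and 575, and the desmosomal cadherins DSG2 and DSC2 were at 605 and 511 and at 429 and 362. CLDN7 was at 282 and 268, CLDN3 at 191 and 217 and JUP, or plakoglobin, at 224 and 224. ESRP1, a splicing factor of epithelial cells, was at 289 and 263. The mesenchymal regulators SNAI1, SNAI2, TWIST1, TWIST2 and ZEB1 were all dim or near the floor, from 23.1 and 23.2 for TWIST2 and 28.5 and 35.3 for ZEB1 to a mean of 51.3 for SNAI1. ZEB2, of the same group, was moderate at 69.1 and 92.5. In all 12 of 22 genes of this mixed list reached 64.

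The kallikreins, a family of secreted serine proteases, differed sharply along their gene cluster. The 15 genes form a row on chromosome 19, broken in the annotation by the gene PPIAP59 between KLK4 and KLK5, and 3 neighbours in the row were bright: KLK3, its close relative KLK2 at 459.9 and 364, and KLK4, a protease of prostate and tooth enamel, at 392 and 331. On either side the signal fell away. KLK15, just before KLK3, was at 37.5 and 42.7, and KLK5, after KLK4, was at 50.4 and 52.2. KLK6 and KLK10 were moderate at 84.2 and 77.2 and at 70.5 and 69.5, and the other 10 genes lay below 64, down to KLK12 at 26.8 and 25.0. The remaining kallikrein genes, KLK13, KLK7, KLK8, KLK9, KLK14, KLK11 and KLK1, ran in this order from a mean of 27.3 to 49.5. KLK2 and KLK3 are similar in sequence, so part of the signal of each may come from the other.

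**Figure D3:**
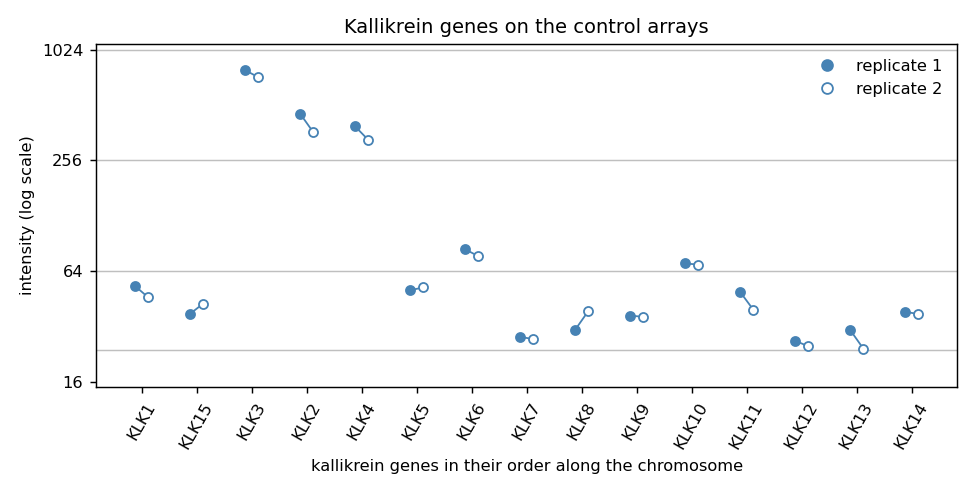
Intensity of the 15 kallikrein genes (vertical axis, log scale) in their order along chromosome 19 (horizontal axis) on control replicate 1 (filled) and replicate 2 (open). KLK3, KLK2 and KLK4 are adjacent and lie at 331 or more, and the remaining genes lie at 84.2 or less.

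The stretches just upstream of these genes are shown because KLK3 and KLK2 share bases there that the dimmest family member lacks. They are the 250 bases before the start site, from the RefSeq table of GRCh38.p14. Capitals mark a loose form of the androgen response element, which is GNACA, then 4 bases of any kind, then GTNCT, where N is any base, and the TATAAA box, each searched on both strands. KLK3 (chr19:50854665-50854914, plus strand) and KLK2 (chr19:50873189-50873438, plus strand) hold both. KLK12 (chr19:51035003-51035252, minus strand) holds neither.
KLK3: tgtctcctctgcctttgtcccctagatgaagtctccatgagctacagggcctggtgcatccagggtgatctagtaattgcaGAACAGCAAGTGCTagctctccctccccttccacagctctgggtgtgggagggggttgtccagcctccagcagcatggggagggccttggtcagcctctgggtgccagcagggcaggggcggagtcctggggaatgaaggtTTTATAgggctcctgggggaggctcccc
KLK2: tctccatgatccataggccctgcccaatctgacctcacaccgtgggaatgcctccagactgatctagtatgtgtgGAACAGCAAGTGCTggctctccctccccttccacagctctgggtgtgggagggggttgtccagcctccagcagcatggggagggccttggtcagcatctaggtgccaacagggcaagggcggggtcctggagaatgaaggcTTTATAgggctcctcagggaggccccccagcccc
KLK12: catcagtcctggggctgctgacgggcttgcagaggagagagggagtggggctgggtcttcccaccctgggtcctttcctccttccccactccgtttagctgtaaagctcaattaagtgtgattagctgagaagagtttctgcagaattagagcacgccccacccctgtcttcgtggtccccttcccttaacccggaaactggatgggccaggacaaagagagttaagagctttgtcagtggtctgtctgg
The element began 169 bases before the KLK3 start and 175 bases before the KLK2 start, and its letters were GAACAGCAAGTGCT in both. The TATA box, which reads TTTATA on the strand shown, began 28 and 34 bases before the start. Global alignment placed identical bases in 205 of 259 columns for KLK3 and KLK2 (79.2%) and in 118 of 261 columns for KLK3 and KLK12 (45.2%). The loose element is rare, being found in 208 of all 35116 upstream stretches of that table (0.592%), and 13 kallikreins had an entry. Among their 22 entries it was found in 2. Both entries of KLK4 lacked it, although KLK4 was bright. A match is a run of letters and not a measured binding site.

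Androgen-responsive genes, 4 kallikreins included, ranged from near the floor to very bright. Of 21 measured genes 17 reached 64 and 10 were bright or very bright, with a median of 221. ODC1, the first enzyme of polyamine synthesis, was at 1269 and 1280.0, and PLPP1, a lipid phosphatase, at 1251 and 1163. FKBP5, a co-chaperone of steroid receptors, was at 484 and 493. CENPN, a centromere protein, was at 655 and 624, and ZBTB10, a zinc finger repressor, at 457 and 496.

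The moderate members were TMEFF2 at 125 and 129.8, NDRG1 at 110.4 and 139.5, HERC3, a ubiquitin ligase, at 199 and 226, and C1orf116, HOMER2, EAF2 and MAF with means of 221, 215, 103 and 77.7. At the low end were the metalloreductase STEAP4 at 22.9 and 21.5 and the kinase SGK1 at 31.8 and 40.1. SGK1, FKBP5 and STEAP4 can also answer glucocorticoids, and NR3C1, the glucocorticoid receptor, was not analysed here.

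Cofactors of androgen-driven transcription were moderate or bright. All 14 measured genes of this list lay at or above 123, and 4 were bright. Besides FOXA1 and GRHL2 these were the histone demethylase KDM1A at 347 and 358 and the acetyltransferase EP300 at 341 and 337. GATA2, another pioneer factor of prostate cells, was at 179 and 173. The steroid receptor coactivators NCOA1, NCOA2 and NCOA4 were at 148 and 173, at 184 and 137 and at 137 and 133. The remaining cofactor genes, KAT5, MED1, CREBBP, NSD2 and PRMT5, ran in this order from a mean of 123 to 255.

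The measured nuclear receptors were mostly dim. Of the 11 receptors measured 2 reached 64, beside 36.6% of all genes, which with so few genes is not read as a difference. RORB, an orphan receptor of retina and brain, was at 413 and 453, and ESRRA, an orphan receptor that drives mitochondrial genes, was at 72.0 and 71.2. The oestrogen receptors ESR1 and ESR2 were at 24.3 and 21.6 and at 30.6 and 26.8. The progesterone receptor PGR was near the floor at 20.7 and 20.5. PPARG and PPARA, receptors for fatty acids, were at 40.3 and 32.7 and at 25.4 and 26.8. The remaining receptor genes, ESRRG, ESRRB, RORA and PPARD, ran in this order from a mean of 28.8 to 50.5. The steroid receptors measured were thus within the range of the hair genes, and the moderate and bright receptors were both orphans.

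Enzymes that make or break down steroids ranged from dim to very bright. CYB5A, a cytochrome that aids steroid and lipid oxidation, was very bright at 1241 and 1372. HSD17B10 and HSD17B4, mitochondrial and peroxisomal enzymes that also oxidise fatty acids, were at 635 and 721 and at 402 and 428. UGDH, which supplies the sugar for steroid glucuronides, was at 308 and 296. HSD17B6, which can turn androstanediol back into dihydrotestosterone, was moderate at 78.1 and 85.0.

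Other enzymes were dim. HSD17B3, the testicular enzyme that makes testosterone, was at 26.5 and 27.1, and HSD17B2, which inactivates it, at 28.7 and 23.4. STAR, which carries cholesterol into mitochondria of steroid glands, was at 39.7 and 43.8. HSD11B2, which inactivates cortisol, was moderate at 89.9 and 87.1, and HSD11B1, which regenerates it, was dim at 39.5 and 31.2. The remaining steroid enzyme genes, HSD17B7, HSD17B1, HSD17B11, HSD17B12 and HSD17B8, ran in this order from a mean of 38.0 to 149. Of the 42 enzymes listed 15 were measured, and 8 of these reached 64. CYP17A1, AKR1C3, the 5-alpha reductases and the UGT2B family were not analysed here.

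Growth factor and peptide hormone receptors were mostly below 64. Of 26 measured receptors 7 reached 64 and 1 was bright, beside 36.6% and 9.3% of all genes, which with so few genes is not read as a difference. The bright one was ACKR3, a scavenging chemokine receptor, at 311 and 291. IGF2R was at 241 and 209.6, EGFR at 199 and 152 and FGFR1 at 114 and 114. ERBB3, which pairs with other receptors of the EGF family, was at 101 and 96.2. IGF1R and INSR, which bind insulin-like growth factors and insulin, were just below 64 at 59.6 and 62.7 and at 56.0 and 51.7.

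MET, the hepatocyte growth factor receptor, was at 26.3 and 28.1, and the kinase KIT and the chemokine receptor CXCR4 were near the floor at 19.2 and 21.5 and at 20.8 and 19.5. The 4 measured receptors of the reproductive hormone axis were dim or near the floor too. The prolactin receptor PRLR was at 23.5 and 23.3, the luteinising hormone receptor LHCGR at 26.5 and 26.7, the follicle-stimulating hormone receptor FSHR at 24.5 and 26.0, and the GnRH receptor GNRHR, at which some prostate cancer drugs are aimed in the pituitary, at 20.7 and 18.9. The growth hormone receptor GHR was moderate at 85.6 and 76.1.

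Developmental transcription factors were mostly dim, with a few standing well apart in each family. HOX genes set position along the body axis, and the genes at the 5′ end of each cluster act in its most posterior parts. Of 27 measured HOX genes 5 reached 64: HOXB13, HOXD1 at 159 and 169.6, HOXC4 at 133 and 138, HOXC9 at 83.8 and 85.3 and HOXD10 at 74.0 and 86.9. In the B cluster HOXB13, the most posterior member, was moderate, HOXB9 and HOXB8 were at 53.3 and 51.9 and at 60.8 and 63.6, and HOXB1 to HOXB7, without HOXB3 at 43.2 and 38.0, lay between 22.9 for HOXB4 and 35.6 for HOXB7.

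HOXD13, which is also needed for the developing prostate, was just above the near-floor band at 25.7 and 22.7, and HOXB4 was within it at 22.4 and 23.4. HOXD11 and HOXD12 were at 33.1 and 35.6 and at 25.1 and 22.6. Of the 11 listed genes of the A cluster only HOXA2, at 28.9 and 43.1, was measured, so the posterior A genes were not analysed here. PRAC1, a small nuclear protein of prostate, rectum and colon that is the gene next to HOXB13, was bright at 249 and 266 and is named after its value was seen.

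All 20 SOX genes were measured, and 3 were bright: SOX2, SOX12 at 346 and 304 and SOX4, a factor of epithelial progenitors, at 247 and 306. SOX9, a factor of prostate bud growth, was at 56.7 and 74.2, above 64 on 1 array only. The other 16 had means between 23.2 for SOX18 and 39.2 for SOX10. SOX1 and SOX3, which share the subgroup of SOX2, were dim at 37.9 and 35.9 and at 27.8 and 25.6. SOX12 had another probeset, at a mean of 59.2.

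Among 40 FOX genes FOXA1 was the 1 bright member, while its relatives FOXA2 and FOXA3, known from liver and gut, were at 29.1 and 30.2 and at 27.4 and 28.2. Of the other 9 genes of 64 or more, FOXE3, a factor of the eye lens, was at 232 and 258, FOXJ3 at 228 and 218 and FOXM1, a driver of mitotic genes, at 217 and 194. FOXO1 and FOXO3, which insulin signalling keeps out of the nucleus, were at 98.2 and 96.1 and at 56.6 and 53.4. FOXD3, a neural crest factor, was nearest the floor at 19.8 and 17.8, and FOXB1 was next at 20.8 and 23.4.

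The GATA, PAX, TBX, NKX and sine oculis factors gave 7 genes of 64 or more out of 44 measured. NKX2-1, a lung and thyroid factor, was bright at 326 and 356, but its other probeset had a mean of 58.7. TBX3 was at 223 and 204, GATA2 has been given above, TBX20, a heart factor, was at 137 and 128, and SIX4 was at 108 and 113. PAX5 and TBX18 followed at 90.9 and 95.5 and at 74.7 and 68.7. GATA3, a factor of breast and bladder epithelium, was dim at 32.1 and 37.8. GATA4, GATA6, PAX2, PAX8 and TBX5, which build other organs, all had means between 32.3 for TBX5 and 46.8 for GATA6. The lowest were TBX22 at 21.7 and 23.9 and TBX2 at 21.4 and 27.3.

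Signalling genes of development were moderate at most. Of 42 measured genes 8 reached 64 and none was bright, beside 36.6% and 9.3% of all genes. The 8 were the Wnt receptors FZD6 at 195 and 184, FZD5 at 143 and 185, FZD1 at 119.7 and 149 and FZD4 at 70.8 and 77.0, the co-receptor LRP6 at 122 and 115, the Hedgehog effector GLI3 at 86.8 and 89.8, NOTCH2 at 84.5 and 79.2 and DLL3. Ligands other than DLL3 had means from 22.0 for FGF7 to 52.4 for DLL1. Receptors and effectors below 64 included FZD3 at 61.4 and 63.0, PTCH1 at 55.6 and 58.9 and NOTCH1 at 34.0 and 33.4. WNT2 was the only measured Wnt ligand, at 26.7 and 29.0, and of the receptors FZD10 was lowest at 22.4 and 24.9.

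**Figure D4:**
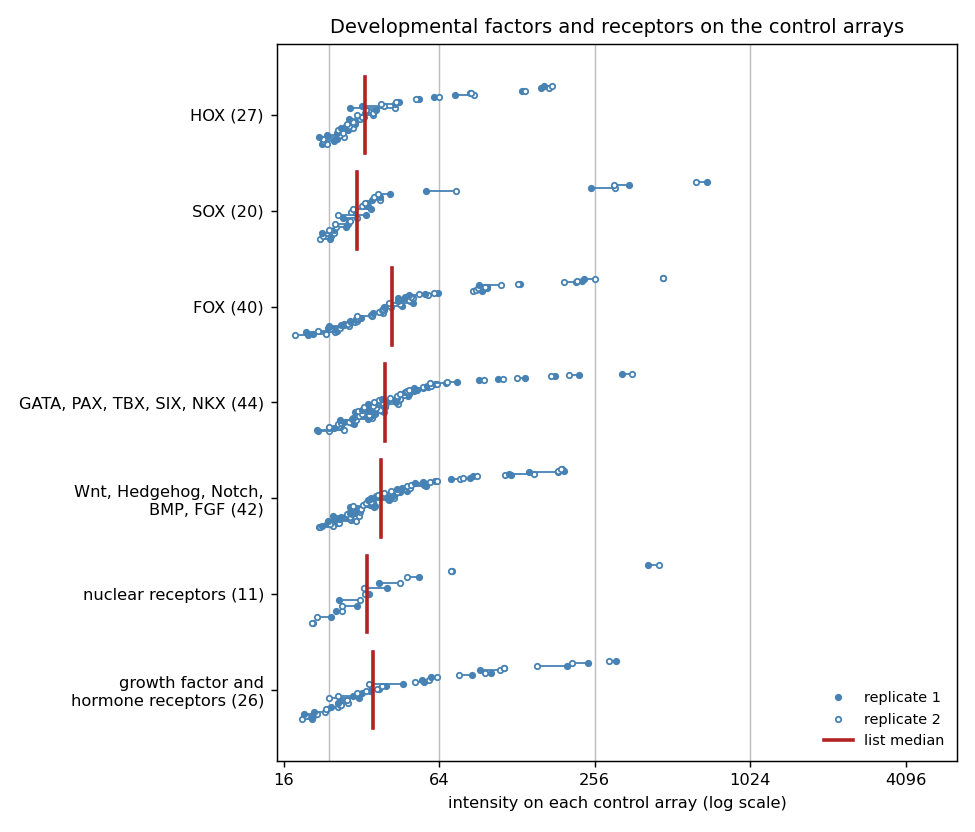
Intensity of each developmental factor or receptor on control replicate 1 (filled) and replicate 2 (open), on a log scale, by family, with the number of measured genes in brackets and the family median as a red bar. All 7 medians lie between 30.9 and 41.9, near the 43.3 of all genes, and single genes such as SOX2, FOXA1, NKX2-1 and RORB stand to the right of their families.

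Oncogenic factors and tumour suppressors gave a mixed group. EHF, an ETS factor of epithelia, was bright at 764 and 733, MYC was at 357 and 332, and the polycomb methyltransferase EZH2 at 320.1 and 350.1. ETS genes that are rearranged in prostate cancers were dim or near the floor: ERG was at 33.9 and 24.4, ETV1 at 29.2 and 27.4, ETV4 at 27.9 and 31.4 and ETV5 at 18.97 and 23.3. Such values do not show that these genes are silent, since an intensity also depends on how well a probeset binds its target. RB1, the retinoblastoma protein, was at 131 and 133, and SPOP and CHD1, often mutated or lost in prostate cancer, were at 167 and 137 and at 116.3 and 141. CDKN2A, which encodes the inhibitors p16 and p14ARF, was near the floor at 19.4 and 21.5. The survival genes MCL1 and BCL2L1 were moderate, at 198 and 209 and at 147 and 145, and BCL2 was dim at 36.9 and 36.1.

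The brightest genes on the arrays served protein synthesis and respiration. Of the 40 brightest genes 22 encode cytosolic ribosomal proteins or their paralogue RPL22L1, led by RPS27 at 5048 and 5717, RPL41 at 4967 and 4970.4 and RPL39 at 3807 and 3929.9. The family had 51 measured genes, tissue-restricted paralogues included, of which 49 reached 64 and 44 were bright or very bright, with a median of 1442. The paralogue RPL3L of striated muscle was at 41.3 and 39.3 and RPL39L, known from testis, at 19.8 and 21.6. HNRNPA1P10, a transcribed copy of the splicing factor gene HNRNPA1, was the brightest of all at 5537 and 5406, where its probes may read the parent transcript. NCL, or nucleolin, was at 2074 and 2007, POMP, the proteasome assembly protein, at 2717 and 2631, and MIF, a secreted tautomerase, at 1777 and 2103.

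The mitochondrial ribosome followed the same pattern at a lower level. All 73 measured mitochondrial ribosomal protein genes lay above 64, from 99.7 to 1199, and 48 were bright or very bright. The respiratory chain had 18 measured genes of complexes III and IV, with a median of 770.0, and 13 were bright or very bright. COX6A1 was at 2188 and 2254, COX4I1 at 1929 and 2014, COX5A at 1739 and 1829 and COX7B at 1545 and 1572, all subunits of cytochrome c oxidase. Another probeset of COX6A1 lay at a mean of 39.9. The 4 genes below 64 were the tissue-restricted subunits COX6B2, COX7A1, COX4I2 and COX6A2, the last pair at 27.1 and 27.1 and at 29.8 and 23.9.

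Glycolytic and pentose phosphate genes divided by isoform. LDHB and LDHA, the subunits of lactate dehydrogenase, were at 1209 and 1174 and at 882 and 802, PGAM1 at 1004 and 1107 and GAPDH at 907 and 946. TALDO1 and TKT, of the pentose phosphate pathway, were at 819.7 and 868 and at 523 and 518. The hexokinases HK1 and HK2 were moderate and close together, at 203 and 185 and at 193 and 196. Of 18 measured genes 13 reached 64, and the 5 below were LDHC at 19.98 and 22.1, PCK1 at 22.4 and 28.7, HK3, PGAM2 and PGK2.

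Across the lists 10 pairs of a widespread and a tissue-restricted form of an enzyme or subunit were picked for this description. Earlier results of these data were known by then, so a split between the forms may be built in by the choice. Of all 14812 genes 9387 lay below 64. Hexokinase was entered as HK2 beside HK3, although HK1 was measured too, so the label widespread is loose for that pair. All 10 widespread forms lay between 178 for PCK2 and 2221 for COX6A1, and 9 of the 10 restricted forms lay below 64, from 21.0 for the testis form LDHC to 48.5 for the testis form COX6B2. The exception was PDHA2, the intronless testis copy of the pyruvate dehydrogenase subunit PDHA1, at 145 and 159 against 407 and 361 for PDHA1. The copies are similar in sequence, and how much of the PDHA2 signal comes from PDHA1 transcripts was not tested. COX6A1 was taken by its brighter probeset, and its other probeset had a mean of 39.9, below 64.

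**Figure D5:**
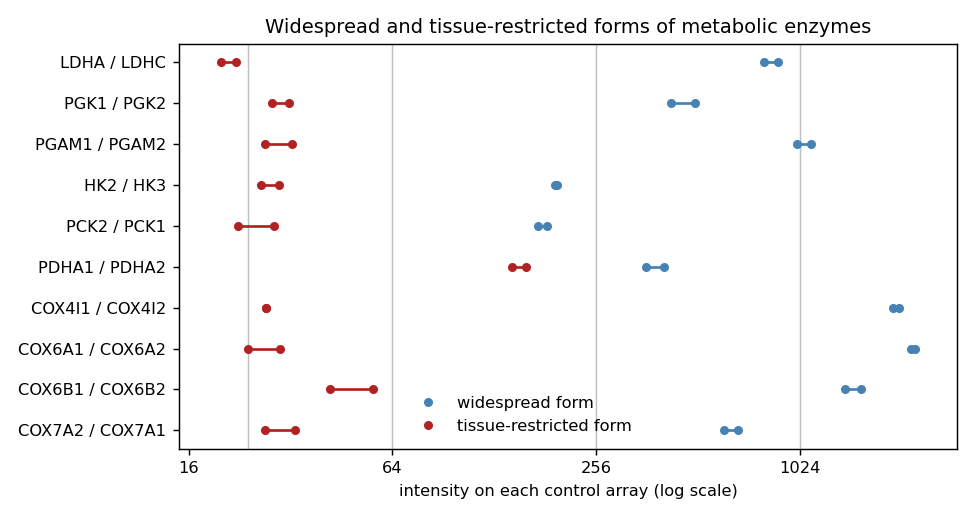
Intensity on both control arrays (joined points, log scale) of the form taken as widespread (blue) and the tissue-restricted form (red) of 10 picked metabolic enzymes and subunits. All blue points lie at 173 or more, and all red points lie below 64 except those of PDHA2. Each gene is shown by its brightest probeset, and the other probeset of COX6A1, at a mean of 39.9, is not shown.

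Genes of citrate metabolism and zinc binding were largely moderate or bright. Of 19 measured genes 15 reached 64 and 8 were bright, beside 36.6% and 9.3% of all genes. Citrate synthase, CS, was at 712 and 662, and the pyruvate dehydrogenase subunits PDHB and DLAT were at 630.3 and 659 and at 496 and 495. ACLY, which splits citrate for lipid synthesis, was at 356 and 319. The 3 subunits of the NAD-dependent isocitrate dehydrogenase, IDH3A, IDH3B and IDH3G, had means between 154 for IDH3G and 221 for IDH3B. PC, pyruvate carboxylase, was dim at 28.9 and 30.3. Metallothioneins, which hold zinc, were split: MT2A and MT1X were bright at 839.8 and 881 and at 624 and 736, MT1F was moderate at 82.8 and 97.8, and MT1E, MT1G and MT3 had means of 23.8, 23.0 and 22.8. These genes are alike in sequence, so their probes may share signal. The aconitases and the zinc transporters were not analysed here, and whether the citrate and zinc traits of the secretory prostate are kept was not tested.

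The 4 enzymes of polyamine synthesis were bright or very bright. ODC1 and AMD1, the decarboxylases of ornithine and S-adenosylmethionine, were at 1269 and 1280.0 and at 965 and 945, and the spermidine and spermine synthases SRM and SMS at 598 and 627 and at 572 and 643. OAZ1, the antizyme that restrains ODC1, was very bright too, at 1113 and 1332. SAT1, which acetylates polyamines for export, was at 377 and 419. The oxidases were lower, with PAOX at 92.8 and 77.1 and SMOX at 27.4 and 24.8. Of 13 genes 11 reached 64 and 7 were bright or very bright, with a median of 280.5 against 43.3 over all genes. The remaining polyamine genes, ATP13A2, MTAP, OAZ2, AZIN1 and ATP13A3, ran in this order from a mean of 36.2 to 281.

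Lipid synthesis was bright in its desaturation and elongation steps. SCD, the stearoyl-CoA desaturase, was at 1209.7 and 1074, ELOVL5, an elongase of polyunsaturated fatty acids, at 856 and 873, and the desaturases FADS2 and FADS1 at 776 and 729 and at 528 and 476. ACACA, the acetyl-CoA carboxylase of fatty acid synthesis, was at 556 and 523, while ACACB, which restrains mitochondrial oxidation, was dim at 46.7 and 42.9. FASN, the fatty acid synthase, was moderate at 233 and 221.

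Of the sterol genes EBP was at 694 and 794, SQLE, the squalene epoxidase, at 346 and 394, INSIG1, a brake on sterol synthesis, at 347 and 348 and HMGCS1 at 312 and 318. The early kinases were dim, MVK at 56.5 and 56.8 and PMVK at 57.8 and 61.8, and so was MVD at 43.0 and 44.8. In all 24 of 34 genes reached 64. PLIN2, a coat protein of lipid droplets, was dim at 24.5 and 28.5, as were ACSL5 and ACSL4, which activate fatty acids, at 20.3 and 28.1 and at 27.99 and 30.4. AMACR, a diagnostic marker of prostate cancer, was not analysed here.

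Noncoding genes were dimmer as classes. Of 1387 long noncoding RNA genes 13.8% reached 64 and 2.16% were bright or very bright, against 42.9% and 11.2% of 11911 protein-coding genes. MALAT1, an abundant nuclear RNA, was at 3071 and 3143. The snoRNA host genes SNHG8 and GAS5 were at 1004 and 1089 and at 455 and 460.0. PCA3, an RNA measured in urine to detect prostate cancer, was moderate at 151 and 181, and PCGEM1, known from prostate tumours, was at 27.8 and 27.3. HOTAIR and PCAT4 were near the floor, at 22.3 and 22.8 and at 19.2 and 21.7. The remaining long noncoding genes, MEG3, PCAT6, SNHG5 and DANCR, ran in this order from a mean of 25.5 to 442. Of 1022 microRNA genes 37 reached 64 and 1 was bright, MIR3200 at 350.1 and 324, which is named after its value was seen.

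Of 15 measured germline and stem cell genes 5 were near the floor and 8 were dim. The GAGE antigens were not in this list. SYCP3, a protein of the meiotic chromosome axis, was bright at 268 and 278, and PRAME, a tumour antigen, moderate at 142 and 175. The other 13 of 15 genes had means from 18.8 for NANOG to 47.1 for DAZL. The pluripotency factor POU5F1 was at 37.4 and 45.4 and LIN28B at 24.3 and 27.7. The remaining germline and stem cell genes, DDX4, SYCP1, ZPBP, LIN28A, TNP1, PRM1, ACR, DPPA4 and PRM2, ran in this order from a mean of 21.3 to 40.5. Bright SOX2 thus stood beside NANOG and POU5F1 below 64.

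Promoter sequence differed between the bands, as described without a test. RefSeq upstream stretches were matched for 10736 genes. The median G+C content of the 250 bases was 51.6% for genes near the floor, 61.6% for dim, 64.8% for moderate, 64.8% for bright and 63.2% for very bright genes. The ratio of observed to expected CpG pairs had medians of 0.36, 0.63, 0.82, 0.84 and 0.85 in the same order. The GC box GGGCGG, on either strand, was found in 31.2% of the stretches of genes near the floor, 51.2% of dim, 64.6% of moderate, 67.8% of bright and 58.7% of very bright genes, and in 42.6% of all stretches of the table.

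TATAAA was most common near the floor. On either strand it was found in 18.2% of stretches near the floor, 8.54% of dim, 5.43% of moderate, 6.57% of bright and 9.33% of very bright genes, and in 10.7% of all stretches. CCAAT varied least, between 30.8% and 38.0% (32.0% of all). The upstream stretch of KLK3 held TATAAA, which was more common near the floor than among bright genes. It also held GGGCGG, which was more common among bright genes, so it matched neither kind alone. The loose androgen response element was found in 0.664% of stretches near the floor and in 0.61% of those of bright genes. Very bright protein-coding genes were also short, with a median span of 7368 bases in the annotation. The other medians were 20674 near the floor, 23869 for dim, 34461 for moderate and 24606 for bright genes. Span thus did not fall steadily with brightness.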

How the data were processed

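The intensities deposited by the authors are linear, 1 per probeset and array, with no value below 16, per the values themselves. How probes were summarised, corrected and normalized is not given in the sources used here. Columns were matched to samples by the identifiers in their names, which left 0 columns unmatched. Intensities of the 2 control arrays were turned to log2 with no other scaling and averaged per gene (Python 3.11.15, pandas 2.3.3).

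Names came from the platform annotation table, whose 15835 gene identifiers all matched the GRCh38.p14 gene table, and 28794 probesets were unnamed here. The brightest probeset stood for each of 651 genes with several; in 26 of these the probesets lay 2 or more bands apart. No filter was applied. The fixed rule named the 40 brightest genes, list members, the family members 2 bands or more above their median, and the 10 genes that differed most between the arrays; other genes are stated as chosen after their values were seen. Members and lists were chosen with earlier results of these data known. Families of taste receptors, defensins, interferons and proteasome subunits had no named probeset, and olfactory receptors had 1, OR4C45 at 21.9 and 23.3. The code for the ranking was run on simulated arrays built from the observed gene means, without noise and with the spread seen between the arrays. This run checked only that the code returned the bands and ranks put in, and not how well probesets bind their targets. The number of arrays, 2, limits the precision.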

Additional observations from a re-analysis of the deposited data

How the results depend on the processing

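Band counts were recomputed with the mean of a gene's probesets, quantile normalization, an offset of 16 taken off (pseudocount 1), protein-coding genes only, and either array alone. Taking 16 off left 6728 genes below 24 and 3477 from 24 to 64, in place of 1950 and 7437, since it lowers every dim value. With protein-coding genes only, 999 of them lay below 24. No other band count moved by more than 1.5 times. With 1 array left out, the counts ran from 2006 to 2044 below 24, 7334 to 7361 from 24 to 64, 4049 to 4053 moderate, 1259 to 1264 bright, and 122 to 132 very bright. Of the 1378 bright or very bright genes, 1291 stayed there with 16 taken off, 1347 on replicate 1 alone and 1353 on replicate 2 alone.

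Of 35 lists and families, with families of under 10 genes such as GAGE not counted, 14 had a median of 64 or more, and 13 or 14 under each alternative, the filter at 24 included. The largest shift of a list's percentile was 8.22 points with the mean of probesets (striated muscle genes), 7.06 with protein-coding genes only, 6.00 with 1 array left out, and 15.1 with genes below 24 on either array left out. No paired analysis was possible because the report describes 1 group of arrays. Signal close to the floor limits what can be said of dim genes: a gene below 64 may be silent or transcribed at a low level.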

Other observations

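Several bright genes outside the lists are named here, all chosen after their values were seen. MME, or neprilysin, a peptidase of the luminal cell surface, was very bright at 1811 and 1603, and DPP4, another surface peptidase, was at 597 and 572. GAL, which encodes the neuropeptide galanin, was at 869 and 965, and the peptide hormone APLN at 402 and 371. MAOA, which oxidises monoamines, was at 784 and 732, and DDC, which makes dopamine and serotonin from their precursors, at 448 and 409. PTGFR, the receptor for prostaglandin F, was at 349 and 336. TPD52, a gene often amplified in prostate cancer, was at 389 and 401, the retinol dehydrogenase RDH11 at 311 and 277 and UAP1, of sugar nucleotide synthesis, at 711 and 802.

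Bright genes with a neural background included NCAM2, an adhesion protein of olfactory neurons, at 600.4 and 501, and CBLN1, a synaptic organiser of the cerebellum, at 473 and 471. HES6, which counters Notch repressors, was at 337 and 367. ONECUT1, a liver and pancreas factor related to ONECUT2, was at 334 and 328. These stood beside dim CHGA, SYP and INSM1, as given above.

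GAGE genes, a cluster of cancer-testis antigens on the X chromosome, had 7 measured members, of which 6 were very bright. GAGE12C was at 1464 and 1596 and GAGE2A at 1327 and 1359, while GAGE10 was near the floor at 21.9 and 20.5. The copies other than GAGE10 are nearly identical, so their probes cannot tell which of them is transcribed.

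The long noncoding gene MIR99AHG was at 307 and 293, and MIR99A and MIRLET7C, microRNA genes that it hosts, were at 153 and 142 and at 82.1 and 75.0. Among small RNAs of nucleoli and Cajal bodies SCARNA9 was bright at 374 and 312, with a median of 47.0 over the 21 measured. Of 436 ZNF genes 9 were bright, the highest being ZNF207 at 463 and 413 and ZNF8 at 438 and 415, then ZNF358, ZNF622, ZNF830 and ZNF121 with means of 386, 346, 332 and 307. Of the 28794 probesets unnamed here 1134 were bright or very bright and 143 of these very bright, so the ranking covers only part of what was bright on the arrays.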
